A study of Mus musculus with 26 samples.

Results

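The comparison described here sets mouse embryos that received Kdm3aWT against embryos of the same genotype that received Kdm3aHA, at the early 2-cell stage. The mothers were C57BL/6J females with floxed alleles of both Kdm3a and Kdm3b and a Cre transgene under the Zp3 promoter, which drives it in the oocyte. Fertilisation was in vitro and the sperm were wild-type, so maternal KDM3A and KDM3B were missing while a paternal copy of each gene remained. These maternal double-knockout embryos are called mDKO. The groups were mDKO embryos with Kdm3aWT, mDKO embryos with Kdm3aHA, mDKO embryos with mCherry and control embryos with mCherry, 2 libraries each, and each library was a pool of 12 to 20 embryos. What HA stands for and how that construct differs from Kdm3aWT are points that the sources used here leave unstated. The labels give the control embryos no genotype beyond that word. The 4 libraries of the first 2 groups are the members, out of 26 in the series, and 10960 of the 24412 genes listed reached a level of 1 TPM, transcripts scaled to a fixed total in each library, in at least 2 of the 8 injected libraries and were tested.

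KDM3A and KDM3B are Jumonji-type enzymes that remove methyl groups from lysine 9 of histone H3, a mark of silent chromatin. In the mouse, the early 2-cell embryo starts transcription from its own genome with a burst of transiently expressed genes, many of them in multicopy families such as Zscan4, Usp17l and Tcstv. The RNA inherited from the oocyte is degraded over the same period.

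Kdm3a RNA was read first, since the injected RNA is counted with it. It stood at 4122 and 2315 TPM in the Kdm3aWT libraries and at 4043 and 3907 TPM in the Kdm3aHA libraries, against 0.262 and 0.411 TPM in mDKO embryos with mCherry and 2.12 and 1.81 TPM in control embryos with mCherry. Both constructs were thus far above either mCherry group, and the Kdm3aWT and Kdm3aHA values overlapped, the lowest being Kdm3aWT replicate 2. The log2 difference, Kdm3aWT minus Kdm3aHA, was -0.36 ± 0.23 (SE, 95% interval -0.88 to 0.15, adjusted p = 0.372). Kdm3b stayed under 1 TPM in all 8 libraries and was not tested. The paralogue Jmjd1c stood at 1.72 and 1.54 TPM with Kdm3aWT and at 1.96 and 1.97 TPM with Kdm3aHA, a log2 difference of -0.17 ± 0.16 that was not called (adjusted p = 0.557).

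The libraries differed in ways that touch the results below. Oocyte and embryo markers summed to between 20977 and 25684 TPM in each of the 8 libraries, while sperm markers summed to between 5.66 and 44.8 TPM and blood markers to between 0.0611 and 32.7 TPM. Across genes, on log2(TPM + 1), the Kdm3aHA libraries correlated at r = 0.9883 with each other and the Kdm3aWT libraries at r = 0.9870 (n = 10960 genes). Kdm3aWT replicate 2 correlated with the Kdm3aHA libraries nearly as well, at r = 0.9860 and 0.9864, whereas Kdm3aWT replicate 1 correlated with them at r = 0.9726 and 0.9754 and so stood apart. The read depth is unknown, because TPM keeps none, and fewer embryos transcribing a gene cannot be told apart here from less RNA per embryo. No label ties the 2 pools of a group to separate mothers or experiments, and the p-values may therefore reflect technical spread alone.

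At an adjusted p under 0.05 in a limma fit of the 8 libraries, 145 genes (1.32%) were higher with Kdm3aWT than with Kdm3aHA and 216 genes (1.97%) were lower. The difference was at least 2-fold for 103 of the higher genes and for 34 of the lower ones. The median difference over all genes was -0.10, and after scaling by median-of-ratios size factors, which brings that median to 0.00, 127 genes were higher and 94 lower, so that higher genes made up 57.5% of the calls in place of 40.2%. After an adjustment of each library for GC content, chosen after the data were seen, 165 were higher and 140 lower (54.1% higher). Both Kdm3aWT libraries stood above both Kdm3aHA libraries for 16.9% of genes and below them for 35.0%. The calls depended on single libraries: 33 genes were higher and 26 lower without Kdm3aWT replicate 1, 438 and 1055 without Kdm3aWT replicate 2, 12 and 19 without Kdm3aHA replicate 1, and 6 and 2 without Kdm3aHA replicate 2. With only the 4 libraries of the pair in the fit, 5 genes were higher and 5 lower.

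Many genes of the early 2-cell burst were higher with Kdm3aWT. Of the 62 tested members of a list of such genes, 20 (32.3%) were higher, beside 1.32% of all genes, and 1, the arginase gene Arg2, was lower, and the list's median log2 difference was 0.54 beside -0.10 over all genes. Both Kdm3aWT libraries stood above both Kdm3aHA libraries for 36 of the 62 (58.1%), beside 16.9% of all genes. The ratio of mean TPM of the 20 higher members, Kdm3aWT over Kdm3aHA, ran between 1.58 and 3.52. Without Kdm3aWT replicate 1, 9 members were called higher and the list's median was 0.61. Leaving out Kdm3aWT replicate 2 gave 19 and 0.47, Kdm3aHA replicate 1 gave 5 and 0.59, and Kdm3aHA replicate 2 gave 3 and 0.42, while the fit of the 4 libraries alone gave 2.

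All 5 tested Zscan4 genes, which encode zinc-finger and SCAN domain proteins of the early 2-cell nucleus, were higher with Kdm3aWT. Zscan4a had 40.7 and 45.9 TPM with Kdm3aWT and 9.95 and 14.6 TPM with Kdm3aHA, against 10.7 and 13.8 TPM in mDKO embryos with mCherry and 169 and 167 TPM in control embryos with mCherry. The Kdm3aHA libraries thus sat with the mCherry libraries of the same genotype, the Kdm3aWT libraries stood above both, and the control libraries stood far above all of them. The log2 difference of Zscan4a, Kdm3aWT minus Kdm3aHA, was 1.76 ± 0.19 (SE, adjusted p = 0.0093). Zscan4f had 93.0 and 137 TPM with Kdm3aWT and 37.9 and 40.7 TPM with Kdm3aHA, against 49.4 and 57.4 TPM with mCherry in mDKO embryos and 411 and 515 TPM in control embryos. Its difference was 1.5 ± 0.19 (adjusted p = 0.0146), with no overlap between the groups. Zscan4c (1.66 ± 0.21), Zscan4b (1.40 ± 0.20) and Zscan4d (1.02 ± 0.20) completed the family. Summed over the family, the libraries held 312 and 406 TPM with Kdm3aWT, 116 and 144 TPM with Kdm3aHA, 143 and 166 TPM in mDKO embryos with mCherry, and 1092 and 1355 TPM in control embryos. The Zscan4 genes are near-identical copies, so how reads were split among them is uncertain and the sum is the firmer value.

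Of the 5 tested Usp17l genes, which encode deubiquitinases, 3 were higher with Kdm3aWT. Usp17lb had 47.4 and 36.9 TPM with Kdm3aWT and 13.2 and 14.9 TPM with Kdm3aHA, against 17.6 and 16.3 TPM in mDKO embryos with mCherry and 94.2 and 90.3 TPM in control embryos, a difference of 1.51 ± 0.14 (adjusted p = 0.0093). Here too the groups did not overlap and Kdm3aHA lay just under mDKO mCherry. Rfpl4b, a gene of the Ret finger protein-like family, had 12.8 and 12.1 TPM with Kdm3aWT and 4.44 and 3.08 TPM with Kdm3aHA, a difference of 1.51 ± 0.24 (adjusted p = 0.0214). The other called members were Usp17la, Usp17lc, Spz1, Zfp352 and predicted genes or clones, among them Gm2016 (1.34 ± 0.20), Gm8300 (1.28 ± 0.17) and Gm13078 (1.23 ± 0.14). Copies of these families are also alike in sequence, so single-gene values share the same uncertainty.

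**Figure D1:**
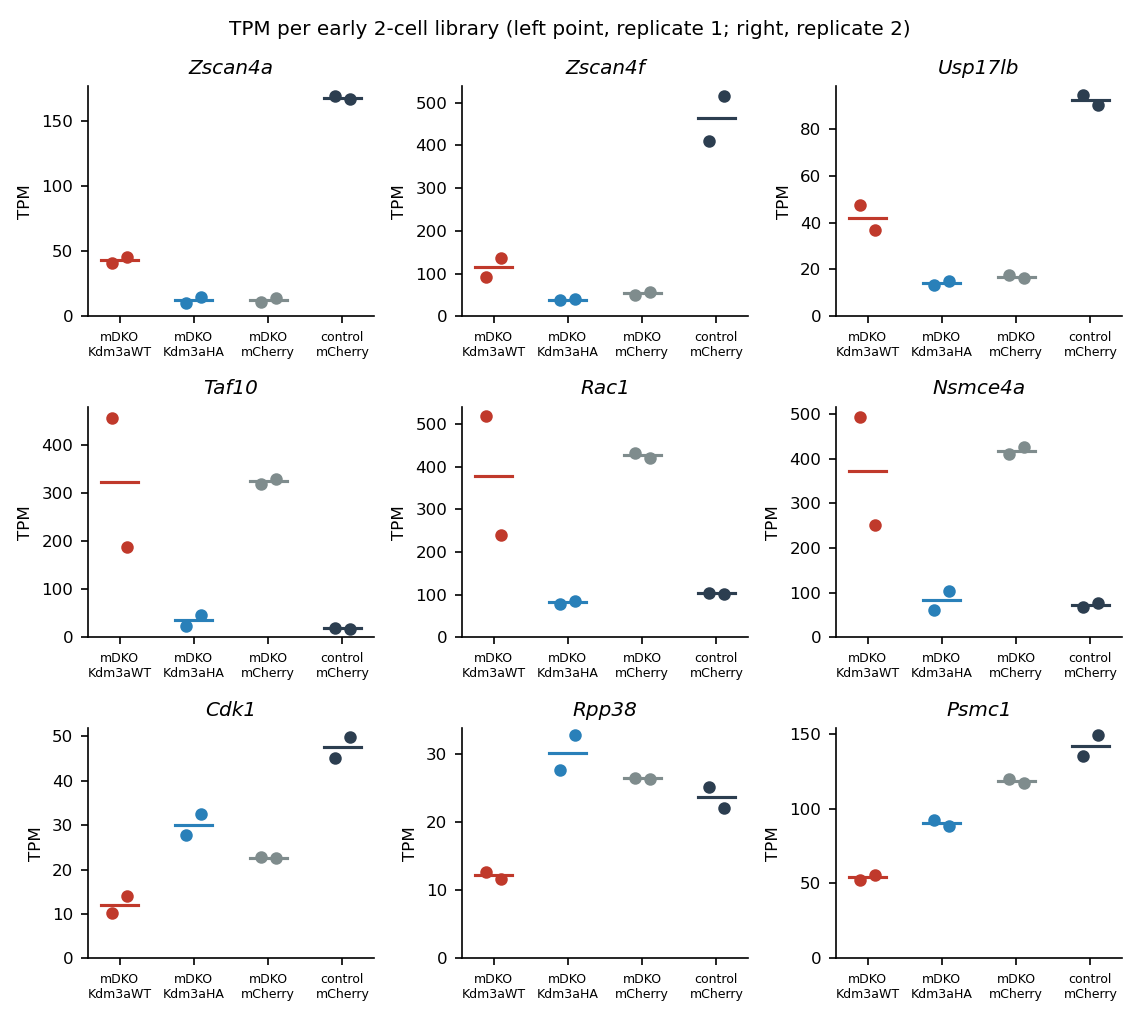
TPM of 9 genes in each of the 8 injected early 2-cell libraries, with mDKO embryos given Kdm3aWT, Kdm3aHA or mCherry and control embryos given mCherry from left to right, points for libraries and lines for group means. Zscan4a, Zscan4f and Usp17lb were higher with Kdm3aWT and highest in controls, Taf10, Rac1 and Nsmce4a were high in both Kdm3aWT and mDKO mCherry libraries with replicate 1 of Kdm3aWT above replicate 2, and Cdk1, Rpp38 and Psmc1 were lowest with Kdm3aWT.

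Upstream sequence is shown for a few genes of the early 2-cell list and of the group of 84 described further on. These genes were picked by hand and not by a rule, so they do not stand for their groups. Each line gives the 250 bases before the first listed start in RefSeq, build GRCm38.p6, 5′ to 3′ on the gene's strand. Capitals mark CG dinucleotides, TATAAA on either strand and the homeodomain-type core TAATCC on either strand, the strands being written TATAAA or TTTATA and TAATCC or GGATTA.
Zscan4f, chr7:11397665-11397914, plus strand: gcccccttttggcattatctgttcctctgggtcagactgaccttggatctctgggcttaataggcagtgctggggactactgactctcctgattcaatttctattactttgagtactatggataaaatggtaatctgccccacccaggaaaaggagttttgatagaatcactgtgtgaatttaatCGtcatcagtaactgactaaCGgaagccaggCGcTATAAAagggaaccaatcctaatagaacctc
Usp17lb, chr7:104842584-104842833, minus strand: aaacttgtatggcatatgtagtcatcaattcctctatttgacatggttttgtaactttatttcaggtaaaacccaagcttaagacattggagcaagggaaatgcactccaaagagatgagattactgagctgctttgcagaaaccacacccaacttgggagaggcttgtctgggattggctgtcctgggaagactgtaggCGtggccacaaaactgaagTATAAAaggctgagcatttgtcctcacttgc
Zfp352, chr4:90218570-90218819, plus strand: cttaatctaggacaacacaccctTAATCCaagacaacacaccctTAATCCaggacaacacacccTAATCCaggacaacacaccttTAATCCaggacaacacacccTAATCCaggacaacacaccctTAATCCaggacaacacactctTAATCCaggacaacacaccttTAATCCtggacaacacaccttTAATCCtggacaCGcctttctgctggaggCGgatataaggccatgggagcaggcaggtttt
Nsmce4a, chr7:130547382-130547631, minus strand: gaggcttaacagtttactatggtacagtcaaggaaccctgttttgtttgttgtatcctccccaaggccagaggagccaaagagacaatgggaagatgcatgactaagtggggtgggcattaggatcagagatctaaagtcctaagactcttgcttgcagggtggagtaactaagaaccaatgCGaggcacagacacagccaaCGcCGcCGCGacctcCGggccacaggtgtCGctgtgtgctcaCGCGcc
Tmem243, chr5:9100487-9100736, plus strand: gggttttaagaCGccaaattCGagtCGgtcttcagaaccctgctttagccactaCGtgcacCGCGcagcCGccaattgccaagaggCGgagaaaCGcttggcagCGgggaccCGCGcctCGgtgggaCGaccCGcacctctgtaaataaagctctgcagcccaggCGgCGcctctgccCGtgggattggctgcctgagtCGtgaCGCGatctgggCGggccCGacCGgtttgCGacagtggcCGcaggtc
The Zscan4f and Usp17lb windows hold 3 and 1 CG and 1 TATAAA each, and the Zfp352 window holds 2 CG and 9 copies of TAATCC in tandem repeats. The windows of Nsmce4a and Tmem243 hold 9 and 26 CG and neither motif. Of the 8380 tested genes with such a window, 7.61% hold TATAAA on either strand and 5.29% hold TAATCC on either strand, and the median number of CG is 15. Only 23 of the 41 genes of the first group below have a window in the table, so a comparison of promoters between gene groups is void, and a match is a description and not a binding site.

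Other early 2-cell families were not called. None of the 4 tested Tcstv genes passed, and their summed level was 344 and 379 TPM with Kdm3aWT, 396 and 409 TPM with Kdm3aHA, 238 and 263 TPM in mDKO embryos with mCherry and 638 and 661 TPM in control embryos. Dux, whose product activates early 2-cell genes, had 6.25 and 6.69 TPM with Kdm3aWT and 7.46 and 6.51 TPM with Kdm3aHA (difference -0.09 ± 0.14, adjusted p = 0.717), with overlapping groups. None of the 8 tested genes of the Obox homeobox list was called, the largest difference being that of Obox8 (0.99 ± 0.26, adjusted p = 0.0709). Obox4, which that list does not hold and which was looked up after its value was seen, was higher, with 884 and 715 TPM with Kdm3aWT against 496 and 579 TPM with Kdm3aHA (0.57 ± 0.12, adjusted p = 0.0404). Of the 26 tested regulators of genome activation 0 were called, with a median of -0.12. Among them Dppa2 had a difference of -0.56 ± 0.15 (adjusted p = 0.0802).

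**Figure D2:**
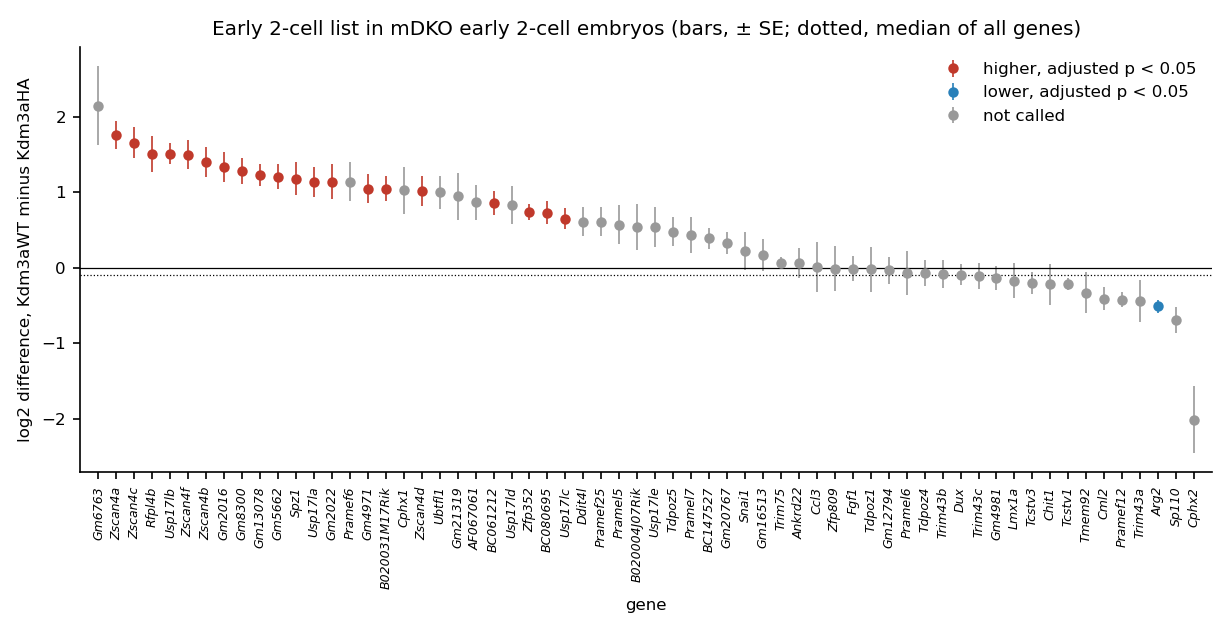
Log2 difference, Kdm3aWT minus Kdm3aHA, of the 62 tested early 2-cell list genes in mDKO early 2-cell embryos, ordered by size, with bars of 1 SE, red for the 20 genes called higher, blue for Arg2 and grey for genes not called. The Zscan4 genes lie between 1.02 and 1.76, and the dotted line at -0.10 is the median of all genes.

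Each construct was also set against mCherry in mDKO embryos, and the 2 comparisons share the mCherry libraries. Over all genes, 104 (0.949%) were higher and 1184 (10.8%) lower with Kdm3aWT than with mCherry. With Kdm3aHA 169 (1.54%) were higher and 1018 (9.29%) lower than with mCherry. The median differences over all genes were -0.19 and -0.08. Genes at 1 TPM or more numbered 9562 and 9546 with Kdm3aWT and 9587 and 9704 with Kdm3aHA, against 10284 and 10157 in mDKO mCherry. These comparisons were run without size factors, and what part of the lower calls goes with such library differences was not tested. Over the 62 early 2-cell list genes, 26 were higher and 1 lower with Kdm3aWT than with mCherry (median 0.50), and 5 were higher and 4 lower with Kdm3aHA than with mCherry (median -0.03). The next values are of the 20 members chosen for a higher level with Kdm3aWT than with Kdm3aHA, so a gap between the constructs is built in. Of these, 15 were also higher with Kdm3aWT than with mCherry (median 1.04), while with Kdm3aHA 0 were higher and 3 were lower than with mCherry (median -0.22). For Zscan4a the differences from mCherry were 1.75 with Kdm3aWT (adjusted p = 0.00109) and -0.01 with Kdm3aHA (adjusted p = 0.99). As a share of the mean TPM in control embryos with mCherry, the 20 members had a median of 34.4% with Kdm3aWT, 15.5% with Kdm3aHA and 18.4% with mCherry in mDKO embryos, and over all 62 list genes the medians were 38.7%, 30% and 30.2% in the same order. With Kdm3aWT 19 of the 20 were still under the control level.

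Genes that mDKO embryos lacked without injection were described next, since those libraries lie outside the pair. In early 2-cell embryos without injection, 663 of 11140 genes (5.95%) were lower in mDKO than in control embryos and 273 (2.45%) were higher, by at least 2-fold. Of the lower set, 594 genes were tested here, and 37 (6.23%) were higher and 6 (1.01%) lower with Kdm3aWT than with Kdm3aHA, beside 1.32% and 1.97% of all genes, with a median of 0.10 beside -0.10. Over 593 genes of the set with a control level, the median share of the control mCherry level was 37.3% with Kdm3aWT, 34.5% with Kdm3aHA and 41.2% with mCherry in mDKO embryos. The 37, which were chosen for a gap between the constructs, stood at 34.9%, 15.8% and 21.9% in the same order. Of the 37, 21 were higher and 0 lower with Kdm3aWT than with mCherry, and 0 were higher and 14 lower with Kdm3aHA. Among the 37 Prps1, which encodes a phosphoribosyl pyrophosphate synthetase and was named after its value was seen, averaged 20.6 ± 2.05 TPM with Kdm3aWT and 7.05 ± 1.07 TPM with Kdm3aHA (SD, n = 2 each; difference 1.43 ± 0.15, adjusted p = 0.0093 in limma). Its mean was 15.8 TPM with mCherry in mDKO embryos. From mCherry, Kdm3aWT differed by 0.36 (adjusted p = 0.163 in limma) and Kdm3aHA by -1.07 (adjusted p = 0.00371 in limma). Of the 256 tested genes of the higher set, 5 were higher and 10 lower with Kdm3aWT, with a median of -0.20. The number of called genes of the lower set was 12 without Kdm3aWT replicate 1, 55 without Kdm3aWT replicate 2, 8 without Kdm3aHA replicate 1 and 3 without Kdm3aHA replicate 2.

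The 145 genes higher with Kdm3aWT did not all follow the early 2-cell pattern. Between mDKO and control embryos given mCherry, 2946 genes (26.9%) were higher and 2195 (20.0%) lower. These libraries are not part of the pair but share its fit and estimate of spread, so the calls are not independent of those of the pair. Of the 145, 41 (28.3%) were lower in mDKO than in control embryos with mCherry, 84 (57.9%) were higher there, and 20 were not called. The 41 held all 20 called early 2-cell genes, and 4 of the 41 form 2 pairs with the same values in every library, BC061212 with Gm7978 and Gm4301 with Gm4312. The oocyte values also separated the 2 groups: 6 of the 41 and 82 of the 84 averaged at least 1 TPM in control MII oocytes, beside 9179 of 10960 genes. Without injection, 1001 genes (8.99%) were lower and 599 (5.38%) higher in mDKO than in control embryos. Of the 41, 36 were lower and 0 higher there, with a median log2 difference of -2.23, and of the 84, 2 were lower and 9 higher, with a median of 0.10.

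Against mCherry in mDKO embryos, 0 of the 84 genes higher in mDKO mCherry were higher and 11 lower with Kdm3aWT (median -0.36). With Kdm3aHA 0 were higher and all 84 lower than with mCherry (median -1.82). The 84 were chosen partly on those mCherry libraries, so these values are not independent of the choice. The 84 held 9 of the 12 highest differences between Kdm3aWT and Kdm3aHA by the rule for named genes. They were led by Taf10, a subunit of the TFIID and SAGA transcription complexes. Taf10 had 458 and 188 TPM with Kdm3aWT and 24.1 and 46.4 TPM with Kdm3aHA, against 319 and 331 TPM in mDKO embryos with mCherry and 20.1 and 17.6 TPM in control embryos with mCherry. Replicate 1 of Kdm3aWT was thus above and replicate 2 below the mDKO mCherry libraries, and both Kdm3aHA libraries were a little above the control mCherry libraries, with no overlap between the Kdm3aWT and Kdm3aHA libraries. The difference was 3.09 ± 0.39 (adjusted p = 0.0146). Without injection, in a separate table, Taf10 stood at 548 and 468 TPM in mDKO embryos and at 432 and 444 TPM in control embryos, both high.

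Rac1, a small GTPase of the actin cytoskeleton, had 518 and 240 TPM with Kdm3aWT and 78.7 and 85.2 TPM with Kdm3aHA, against 432 and 421 TPM in mDKO embryos with mCherry and 105 and 101 TPM in control embryos with mCherry (2.09 ± 0.28, adjusted p = 0.0146). Nsmce4a, a subunit of the SMC5/6 complex, had 494 and 252 TPM with Kdm3aWT and 62.1 and 103 TPM with Kdm3aHA (2.13 ± 0.31, adjusted p = 0.0167). The same order held for both genes: Kdm3aWT replicate 1 was highest, replicate 2 was lower, and both Kdm3aHA libraries were lowest of the pair. The splicing factor gene Srsf2 (2.08 ± 0.33), the mRNA export adaptor gene Alyref (2.08 ± 0.35), the antiproliferative gene Btg3 (2.72 ± 0.32), Scand1 (2.25 ± 0.44), Tmem243 (2.04 ± 0.33) and Nupr1 (1.97 ± 0.41) were also in this group. Wfdc15a (2.56 ± 0.53), Prss37 (2.00 ± 0.34) and the cardiolipin synthase gene Crls1 (1.99 ± 0.32) were higher with Kdm3aWT as well but were not called between the mCherry groups.

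Several measures moved with the group of 84, and their part in the result was not tested. For 83 of the 84 genes Kdm3aWT replicate 1 was above replicate 2, with a median ratio of 1.69. The same held for 28 of the 41 genes of the other group, with a median ratio of 1.06. Over all tested genes it held for 4575 of 10960, with a median ratio of 0.96. Without Kdm3aWT replicate 1, 20 of the 84 and 12 of the 41 were still called, without Kdm3aHA replicate 1 there were 1 and 9, and without Kdm3aHA replicate 2 there were 1 and 3. The median GC content of the first 500 transcript bases was 64.2% over the 80 of the 84 genes with a matched transcript, beside 49.4% over 40 of the 41 and 55.8% over all tested genes with one. The rank correlation across genes between that GC content and a library's deviation from the gene's mean was 0.20 and 0.15 with Kdm3aWT, 0.01 and 0.08 with Kdm3aHA, 0.15 and 0.15 in mDKO mCherry, and -0.22 and -0.23 in control mCherry. A loess adjustment of each library for that GC content was chosen after the data were seen. After it, 80 of the 84 and all 41 of the 41 were called higher. With size factors 67 of the 84 and 40 of the 41 were called. With no filter on low TPM there were 0 and 7, and with only the 4 libraries of the pair 0 and 4. One member is a cumulus and granulosa marker, the steroid dehydrogenase gene Hsd3b1, at 5.68 and 1.47 TPM with Kdm3aWT and listed at 0 in both Kdm3aHA libraries, against 80.0 and 79.5 TPM in mDKO mCherry and 0 in both control mCherry libraries. Of the whole marker list 1 of 7 tested genes (14.3%) was called higher, beside 1.32% of all genes. For 6 of the 7 the difference was positive, with a median of 0.37 beside -0.10 over all genes. Both Kdm3aWT libraries stood above both Kdm3aHA libraries for 4 of the 7 (57.1%), beside 16.9% of all genes. The list summed to 260 and 250 TPM with Kdm3aWT, 235 and 250 TPM with Kdm3aHA, 431 and 423 TPM in mDKO mCherry and 85.3 and 77.7 TPM in control mCherry.

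**Figure D3:**
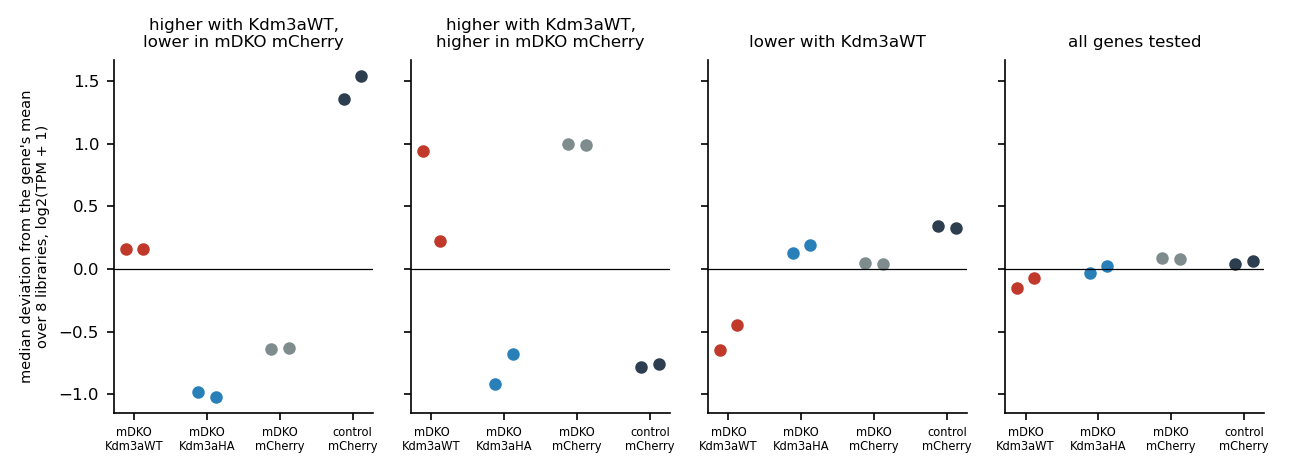
Median deviation from each gene's mean over the 8 libraries, on log2(TPM + 1), in each library for 4 sets of genes, the 41 and the 84 genes higher with Kdm3aWT, the 216 lower genes and all 10960 genes tested. In the 41 genes both Kdm3aWT libraries stood at 0.16, while in the 84 genes they stood at 0.94 and 0.22.

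**Figure D4:**
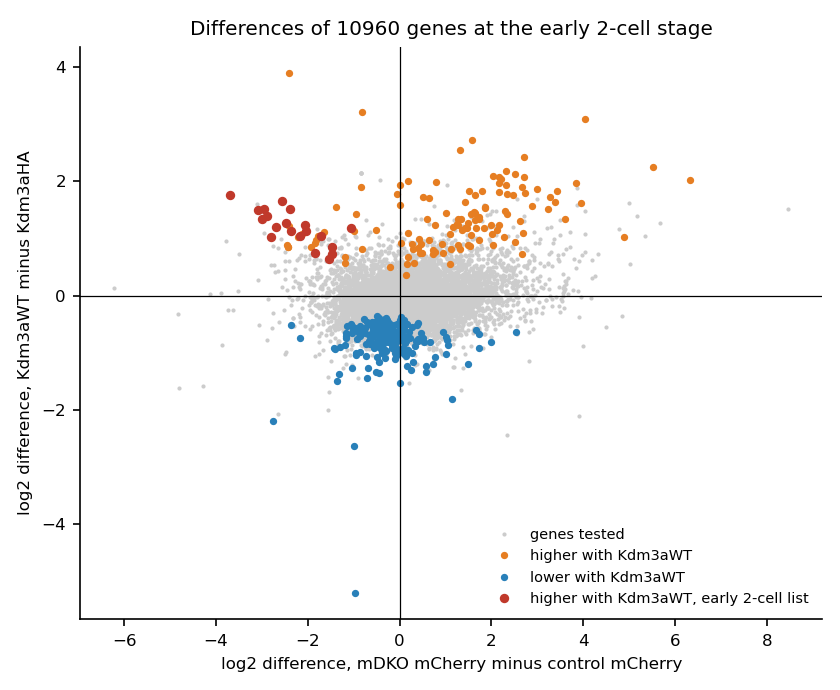
Log2 difference Kdm3aWT minus Kdm3aHA on the vertical axis against mDKO mCherry minus control mCherry on the horizontal axis for 10960 genes, comparisons that share no library. Early 2-cell list genes higher with Kdm3aWT (red) lie to the left of 0 and most of the other higher genes (orange) to the right.

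Across all genes, the difference between Kdm3aWT and Kdm3aHA ran with Pearson r = 0.232 against the difference between mDKO and control embryos with mCherry (n = 10960 genes), and with r = -0.165 against the difference between mDKO and control embryos without injection (n = 10424 genes). These are descriptions across genes, which are not independent replicates. Of the 145 higher genes, 41 (28.3%) were lower and 9 (6.21%) were higher in mDKO than in control embryos without injection.

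The 216 genes lower with Kdm3aWT had smaller differences, of at least 2-fold for 34 of them. Cdk1, the kinase that drives entry into mitosis, had 10.2 and 14.0 TPM with Kdm3aWT and 27.7 and 32.5 TPM with Kdm3aHA, against 22.8 and 22.5 TPM in mDKO mCherry and 45.2 and 49.9 TPM in control mCherry (-1.26 ± 0.16, adjusted p = 0.0146). Rpp38, a ribonuclease P subunit gene, had 12.7 and 11.7 TPM with Kdm3aWT and 27.7 and 32.8 TPM with Kdm3aHA, against 26.5 and 26.4 TPM in mDKO mCherry and 25.2 and 22.1 TPM in control mCherry (-1.24 ± 0.13, adjusted p = 0.0093). In both genes the Kdm3aWT libraries were the lowest of all 8 and did not overlap with Kdm3aHA. Fbxo5, an inhibitor of the anaphase-promoting complex, had 24.5 and 32.9 TPM with Kdm3aWT and 62.3 and 71.6 TPM with Kdm3aHA (-1.20 ± 0.17, adjusted p = 0.0146). It had 47.9 and 46.8 TPM in mDKO mCherry and 18.2 and 14.6 TPM in control mCherry, so for Fbxo5 the Kdm3aWT libraries lay between the mCherry groups. Oog1, an oocyte gene with near-identical copies, had the largest difference (-5.21 ± 1.0, adjusted p = 0.0341), at 0.0268 and 0.0787 TPM with Kdm3aWT and 39.7 and 36.4 TPM with Kdm3aHA, but it also varied within groups, with 5.93 and 0.0949 TPM in mDKO mCherry and 14.8 and 0.837 TPM in control mCherry. The other lower genes with the largest differences were Tceal8 (-2.19 ± 0.22), Dpys (-1.38 ± 0.18), Nudt2 (-1.33 ± 0.18), Ndufb4 of respiratory complex I (-1.31 ± 0.16), the translation factor gene Eif3m (-1.20 ± 0.19), Kin (-1.17 ± 0.20), Frg1 (-1.16 ± 0.15) and the telomere-binding gene Terf1 (-1.11 ± 0.18), and the predicted genes Gm12191 (-1.45 ± 0.21) and Gm813 (-1.36 ± 0.14).

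As a share of the control mCherry mean, the 216 lower genes had a median of 51.6% with Kdm3aWT, 87.2% with Kdm3aHA and 81.4% with mCherry in mDKO embryos, beside 86.1%, 93.7% and 102% over all genes. The genes were chosen for the gap between the constructs. Of them, 147 were lower with Kdm3aWT than with mCherry, beside 10.8% of all genes. With Kdm3aHA 25 were higher and 3 lower than with mCherry, beside 1.54% and 9.29% of all genes. The mCherry libraries were shared. Between the mCherry groups 98 of the 216 (45.4%) were lower in mDKO embryos and 23 (10.6%) higher, beside 20.0% and 26.9% of all genes. With median-of-ratios size factors 94 of the 216 were still called lower, and 22 without Kdm3aWT replicate 1, 18 without Kdm3aHA replicate 1 and 2 without Kdm3aHA replicate 2.

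Of the protein machinery lists, 5 of the 31 tested proteasome genes (16.1%) were lower and 0 higher, with a median of -0.23, and these and the counts that follow stand beside 1.97% lower, 1.32% higher and a median of -0.10 over all genes. Psmc1, an ATPase of the proteasome cap, had 52.5 and 55.8 TPM with Kdm3aWT and 92.7 and 88.6 TPM with Kdm3aHA, against 120 and 117 TPM in mDKO mCherry (-0.73 ± 0.10, adjusted p = 0.0146). Psmb7 (-0.83 ± 0.16), Psmd12 (-0.63 ± 0.13) and Psma2 (-0.50 ± 0.10) were lower too. After size factors 1 proteasome gene was called, as without Kdm3aWT replicate 1, while 12 were called without Kdm3aWT replicate 2 and 0 without either Kdm3aHA replicate. Of the 78 ribosomal protein genes 7 were lower, among them Rpl17 (-0.89 ± 0.12), and 2 were higher, among them Rpl30 (1.34 ± 0.17), which was also one of the 84. Their median was -0.05 and turned to 0.07 after size factors and to 0.02 after the GC adjustment. Of 52 ribosome biogenesis genes 4 were lower, Wdr12, Dkc1, Ddx18 and Ncl, between -0.81 and -0.53, with a median of -0.26. None of these 52 was called lower with size factors, without Kdm3aWT replicate 1 or without either Kdm3aHA replicate, and 13 were without Kdm3aWT replicate 2. Of 52 RNA polymerase II and spliceosome genes 5 were lower, led by Polr2b (-0.97 ± 0.18), and 1, Srsf2, was higher; with size factors 3 were lower, and without Kdm3aWT replicate 1 or Kdm3aHA replicate 1 only 1 was, and without Kdm3aHA replicate 2 there were 0.

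Few members of the other lists were called, to be read beside 1.97% of all genes lower and 1.32% higher. Of 66 tested oocyte and maternal-effect genes 5 were lower and 0 higher, with a median of -0.16: besides Oog1 these were Zar1l (-0.97 ± 0.20), the plasminogen activator gene Plat (-0.63 ± 0.10), Oosp2 (-0.56 ± 0.09) and the nuclear chaperone gene Npm2 (-0.41 ± 0.07). The number lower was 0 without Kdm3aWT replicate 1 or either Kdm3aHA replicate, 3 with size factors and 14 without Kdm3aWT replicate 2. Of 25 genes of maternal RNA clearance 0 were called, although Cnot11 of the CCR4-NOT complex came near with 1.20 ± 0.27 (adjusted p = 0.0532). Of 37 cell cycle genes 2 were lower, Cdk1 and the mitotic kinase gene Aurkb (-1.0 ± 0.19), and of 29 heat shock and unfolded protein genes 2 were lower, Hsp90aa1 (-0.53 ± 0.07) and Dnaja1 (-0.56 ± 0.10). Without Kdm3aWT replicate 1 there was 1 call in each of these 2 lists, without either Kdm3aHA replicate there were 0, and without Kdm3aWT replicate 2 there were 3 and 7 lower genes. Among the enzymes of the H3K9 mark, 0 of 8 tested demethylases were called, and of 21 genes of H3K9 methylation and DNA methylation 1, the maintenance DNA methyltransferase gene Dnmt1, was lower, at 28.1 and 33.7 TPM with Kdm3aWT against 47.4 and 49.3 TPM with Kdm3aHA (-0.63 ± 0.12, adjusted p = 0.0313).

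The remaining lists held at most 2 called genes each. Of 29 germline genes Tex15 was higher (1.05 ± 0.16), at 7.31 and 5.96 TPM with Kdm3aWT against 2.44 and 2.94 TPM with Kdm3aHA, and the synaptonemal complex gene Sycp3 was lower (-0.74 ± 0.12). Of 10 Xlr genes Xlr4a was higher (0.81 ± 0.16), of 18 imprinted genes Gnas was higher (0.56 ± 0.10), and of 8 interferon-response genes Irf1 was lower (-0.86 ± 0.17). The mDKO mCherry mean was 7.76 TPM for Tex15, 43.4 TPM for Xlr4a and 280 TPM for Gnas, above the mean of either construct. Of 17 p53 targets and of 14 pluripotency and lineage genes 0 were called, with medians of 0.30 and -0.23. Of the 17 p53 targets 9 had a positive difference, and their median ran from -0.15 to 0.38 under the settings run. Of the 3 sperm and the 3 blood markers tested 0 were called.

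The same constructs were also given to wild-type embryos that were sampled at the 4-cell stage, in a table of their own. Kdm3a stood there at 108 and 53.4 TPM with Kdm3aWT and at 70.5 and 161 TPM with Kdm3aHA, against 21.8 and 6.24 TPM with mCherry, so that both constructs were above mCherry and overlapped. There 0 of 9669 genes (0%) differed between Kdm3aWT and Kdm3aHA in limma, with 227 at an unadjusted p under 0.05; without Kdm3aWT replicate 1 there were 12 called genes and without Kdm3aWT replicate 2 there were 23. Of the 55 early 2-cell list genes tested there, 50 (90.9%) had a positive difference, beside 59.3% of all genes there, with a median of 0.92 beside 0.08 over all genes, and both Kdm3aWT libraries stood above both Kdm3aHA libraries for 22 (40%), beside 17.5% of all genes. Of the 20 members called in mDKO embryos, 18 were tested at the 4-cell stage, and all 18 had a positive difference. A positive median was not particular to this list at the 4-cell stage. It was 0.60 over 8 Obox genes and 0.43 over 55 oocyte and maternal-effect genes. Over 78 ribosomal protein genes it was -0.06, and over 31 proteasome genes -0.13. Usp17lb had 164 and 126 TPM with Kdm3aWT and 7.22 and 55.1 TPM with Kdm3aHA, against 70.0 and 15.1 TPM with mCherry. Zscan4f had 27.8 and 5.17 TPM with Kdm3aWT and 2.38 and 1.18 TPM with Kdm3aHA, against 0.377 and 0.92 TPM with mCherry. In both genes the Kdm3aWT and Kdm3aHA libraries did not overlap, but the spread within groups was wide and the adjusted p was 1 for each. Replicates at the 4-cell stage correlated across genes at r = 0.977 with Kdm3aWT, 0.955 with Kdm3aHA and 0.949 with mCherry.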

How the data were processed

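PolyA RNA of pooled embryos was sequenced with a SMART-Seq kit, either v4 or mRNA LP, per the labels' protocols, which do not say which library had which. The deposited values are TPM. The tools listed in the submitters' processing notes, with no order, are RSEM 1.3.1, STAR 2.7.10b, SAMtools 1.9 and Bowtie2 2.3.4.1, and the build is mm10. TPM shares out a fixed total, so the depth is unknown, no counting error can be given, and a gene that takes more lowers all others. All columns matched 1 sample each and 0 were left out.

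Log2(TPM + 1) was fitted with limma 3.58.1 in R 4.3.3 (lmFit, eBayes with a trend; two-sided; Benjamini-Hochberg over all genes that reached 1 TPM in 2 or more libraries of the fit; calls at an adjusted p under 0.05). The 8 injected early 2-cell libraries shared 1 fit, as did the 6 4-cell libraries and the 4 early 2-cell libraries without injection. The fit was run on simulated data with independent noise in each gene and library. That simulation held no library-wide effects, so it does not cover the dependence on single libraries seen here. Differences on this scale understate those of low genes. Values after ± are SE unless stated. With 2 against 2 libraries the smallest exact permutation p is 0.333. Replicate numbers did not pair the samples. The gene lists and the comparison were chosen with earlier results of these data known. Named genes were Kdm3a, Kdm3b and Jmjd1c, the 12 highest and 12 lowest called genes with a mean of at least 5 TPM and no overlap, up to 4 predicted genes per direction by the same rule, and up to 4 members per list; other names were chosen after their values were seen. Of 24412 symbols, 23193 matched RefSeq (GRCm38.p6) and 23376 matched GENCODE M21 transcripts, whose longest transcript gave GC content. The alternatives were another pseudocount, other filters, only 4 libraries, size factors, a replicate block, rescaling without Kdm3a, leaving out each replicate, and a GC adjustment.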

Additional observations from a re-analysis of the deposited data

Results flagged for a closer look

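Of 62 named genes called in mDKO early 2-cell embryos and tested at the 4-cell stage, 11 had Kdm3aWT and Kdm3aHA libraries that did not overlap at either stage and lay on the same sides, beside 17.5% (both Kdm3aWT above) and 12.1% (both below) of all genes at the 4-cell stage alone. For 6 of the 62 the Kdm3aWT and Kdm3aHA libraries did not overlap at either stage but changed sides between the stages. This count is also to be read beside those shares. The difference between the stages was not tested, and no 4-cell difference was called. The 4-cell embryos were wild-type and the early 2-cell embryos mDKO. With the constructs, Kdm3a stood at 53.4 to 161 TPM at the 4-cell stage and at 2315 to 4122 TPM at the early 2-cell stage. Stage, genotype and Kdm3a level cannot be told apart here. Log2 differences, Kdm3aWT minus Kdm3aHA, were -0.12 ± 0.43 at the 4-cell stage and 2.08 at the early 2-cell stage for Srsf2. They were -0.83 ± 0.66 and 2.04 for Tmem243, and -0.94 ± 0.67 and 0.56 for Gnas. For Ddx18 they were 0.09 ± 0.37 and -0.57, for Aurkb 0.42 ± 0.47 and -1.0, and for Npm2 0.51 ± 0.48 and -0.41.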

How the results depend on the processing

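The counts of calls depended on the settings, and the cause was not tested. With no filter on low TPM, which adds genes to the adjustment, 12 genes were higher and 14 lower, with 6 of the genes lower in mDKO embryos without injection and 3 early 2-cell list genes called higher. With only the 4 libraries in the fit, 5 were higher and 5 lower, with 3 and 2 in those sets. With a filter at 5 TPM 395 genes were lower, with size factors 94, and with the GC adjustment, added after seeing the data, 140. Leaving out 1 library gave 6 to 438 higher genes, 2 to 1055 lower genes, 3 to 55 of the genes lower without injection, 3 to 19 of the early 2-cell list and 0 to 23 called genes at the 4-cell stage; where it left 1 library in a group, that library was assumed to vary like the others. With the replicate block 122 genes were higher and 196 lower, with 35 and 18 in the 2 sets, and replicates of the same number correlated between -0.10 and 0.05 across groups in their deviations, so the numbers were not taken to pair the samples. The other planned counts stayed within 1.5 times. The early 2-cell list kept a positive median, between 0.42 and 0.65, under every setting run. Of 125 named genes 65 were called, and of these 61 lost their call without Kdm3aHA replicate 2, 60 with only the 4 libraries, 58 with no filter, 54 without Kdm3aHA replicate 1, 43 without Kdm3aWT replicate 1, 16 with size factors and at most 5 under each other setting. None of the called named genes reversed its direction under the settings run. Depth is unknown, so what low values could show is unknown as well.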

Other observations

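Cphx1 and Cphx2, homeobox genes of the early 2-cell list named after their values were seen, differed in opposite directions. Cphx1 had 171 and 161 TPM with Kdm3aWT and 120 and 53.7 TPM with Kdm3aHA (1.03 ± 0.31, adjusted p = 0.103 in limma). Cphx2 had 25.8 and 87.2 TPM with Kdm3aWT and 164 and 231 TPM with Kdm3aHA (-2.01 ± 0.44, adjusted p = 0.05, just over the threshold). Neither was called. Their sum was 197 and 249 TPM with Kdm3aWT and 284 and 285 TPM with Kdm3aHA.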
